A study of Mus musculus with 2 samples.

Results

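The 33 genes described here are the SR and hnRNP splicing regulators of the mouse: 11 Srsf genes, Tra2a and Tra2b, and 20 Hnrnp genes. They were taken from 21474 protein-coding genes by a rule on symbols that uses no measured value. RNA levels were measured in 2 biological replicates of a single group, hematopoietic stem cells (HSC) of adult male C57BL/6J mice aged 5 to 6 weeks. Each library was made from 100 ng of total RNA after removal of ribosomal RNA. No genetic change or treatment is recorded, the replicates carry separate biosample entries under the same strain entry, and the labels do not say whether they came from different animals. With 1 group of 2 libraries no test between conditions exists, so every comparison below is a description, and the spread between the libraries may be technical.

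SR proteins carry an RNA recognition motif and a tail rich in arginine and serine. They bind enhancers in exons and help the spliceosome to use the neighbouring splice sites. The Tra2 proteins are SR-like activators that bind purine-rich RNA. The hnRNP proteins coat nascent RNA, and many of them repress splice sites or act on RNA export, stability and translation. Many of these genes regulate their own level: the protein promotes an isoform that includes an exon with an early stop codon, often called a poison exon, or that keeps an intron. Such an RNA is a target of nonsense-mediated decay or stays in the nucleus, so the gene makes RNA without making protein.

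The stretches below show where such an isoform stops. Each runs 5′ to 3′ on the strand of the gene from the first base of the exon through the stop codon, which is in capitals. Positions and sequences are those of GENCODE M21 on GRCm38. Among 24 decay transcripts of the genes with an annotated stop, 9 place it in an exon that overlaps no coding segment of the gene, and these belong to 6 genes, with 1 exon shown for each. Srsf6 was added after its values were seen. Its exon overlaps a coding segment of another annotated coding transcript, Srsf6-202, and so falls outside that rule.
Srsf3-201, chr17:29039454-29039487, plus strand: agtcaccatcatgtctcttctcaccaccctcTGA
Tra2b-206, chr16:22259181-22259261, minus strand: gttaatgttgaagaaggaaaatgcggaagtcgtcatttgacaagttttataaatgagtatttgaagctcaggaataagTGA
Srsf6-201, chr2:162932815-162932966, plus strand: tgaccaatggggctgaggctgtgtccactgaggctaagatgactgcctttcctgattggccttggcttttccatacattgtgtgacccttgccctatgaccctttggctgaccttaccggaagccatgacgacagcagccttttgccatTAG
Hnrnpll-203, chr17:80044976-80045022, minus strand: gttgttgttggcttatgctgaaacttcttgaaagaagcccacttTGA
Srsf4-203, chr4:131884276-131884390, plus strand: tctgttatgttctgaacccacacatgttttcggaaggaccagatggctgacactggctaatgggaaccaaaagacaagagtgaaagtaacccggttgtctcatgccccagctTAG
Srsf11-206, chr3:158024209-158024231, minus strand: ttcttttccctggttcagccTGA
Hnrnpl-213, chr7:28817335-28817393, plus strand: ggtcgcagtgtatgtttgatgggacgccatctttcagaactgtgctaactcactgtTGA

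The whole exons were 456 nucleotides long in Srsf3, 276 in Tra2b, 268 in Srsf6, 207 in Srsf4, 109 in Srsf11, 83 in Hnrnpll and 70 in Hnrnpl. In Srsf11 the stop fell after the shortest stretch, within 23 bases of the exon start. The exons of Srsf3, Tra2b and Srsf4 have lengths divisible by 3, and their reading frames still end 34, 81 and 115 bases into them. The Tra2b exon differed from the others in its GAA content. It held 28 GAA triplets, 10.1 per 100 nucleotides. GAA was counted on the transcript strand with every start position allowed, and exons of like length (within 20%) in coding transcripts had a median of 2.03. Only 0.0446% of those 11217 internal exons held GAA as densely. The reverse complement TTC was not present in the Tra2b exon. TTC was dense in the exons of Srsf11 (5.50 per 100 nucleotides) and Srsf3 (3.29), densities that 0.631% and 1.81% of like exons reached. The exon of Hnrnpll had 6.02 GAA per 100 nucleotides, a density that 6.35% of like exons reached. The exons of Srsf3 (0.658) and Srsf6 (0.746) were poor in GAA, and 90.9% and 90.1% of like exons had at least as much. GAA-rich RNA is the known binding preference of the Tra2 proteins themselves. A match here describes letters and is not evidence of binding.

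**Figure D1:**
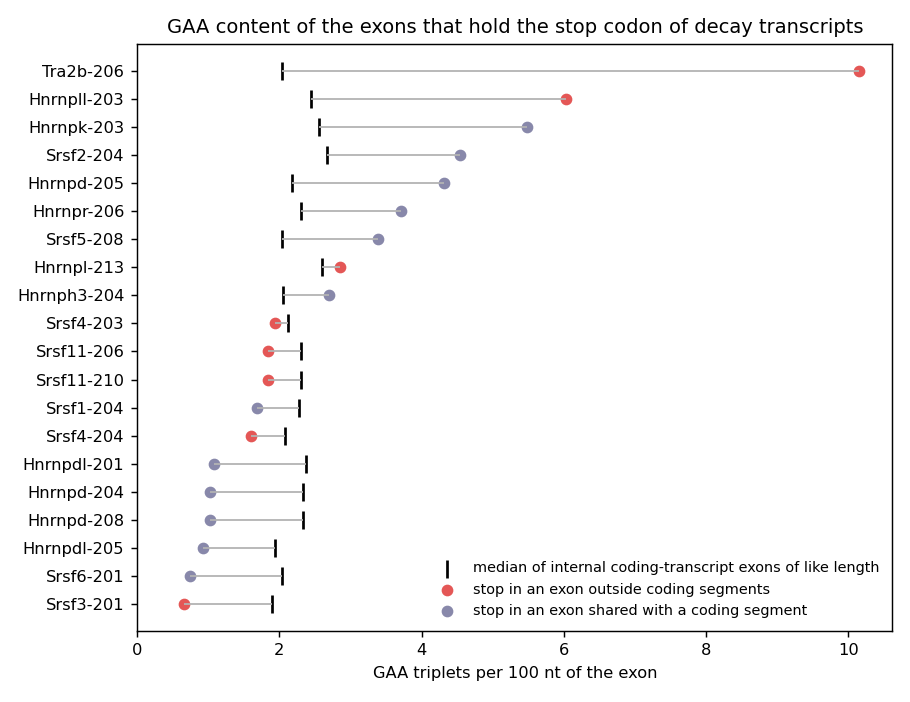
GAA triplets per 100 nucleotides (x axis) of each exon that holds the stop codon of a decay transcript with a level above 0 (y axis). Red points are exons outside coding segments, grey points are exons shared with a coding segment, and black ticks are the median of internal exons of like length; Tra2b-206 stands at 10.1 and its tick at 2.03.

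The genes were broadly and strongly expressed. At a threshold of 1 TPM (a level scaled by transcript length and by the total of the library) in both libraries, 32 of 33 were detected, against 44.0% of all protein-coding genes. By mean TPM the median of the 33 lay at the 95.5th percentile of the detected protein-coding genes, 19 ranked among the top 500, and 30 had at least 10 TPM in both libraries. Together they took 1.4998% of protein-coding TPM in replicate 1 and 1.86% in replicate 2. The Srsf and Tra2 genes took 0.524% and 0.534%, and the Hnrnp genes 0.976% and 1.32%. The median over Srsf and Tra2 genes was 57.2 TPM, then 57.4, in the first and the second replicate. The median over Hnrnp genes was 44.3 and 68.4, so the order of the families differed between the libraries. The log2 difference of the medians, Hnrnp minus the others with a pseudocount of 1, was -0.36 in replicate 1 and 0.21 in replicate 2.

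**Figure D2:**
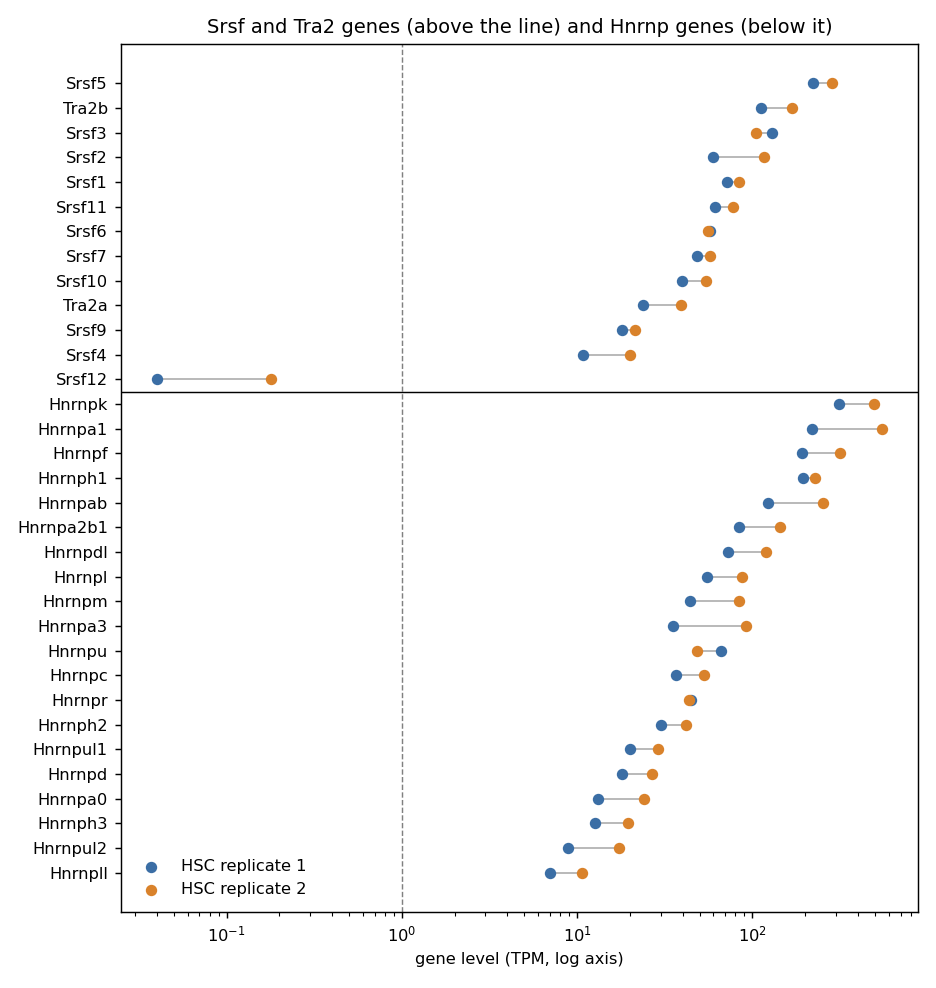
Gene level in TPM on a log axis for all 33 genes (y axis) in replicate 1 (blue) and replicate 2 (orange), Srsf and Tra2 genes above the line and Hnrnp genes below it. The dashed line marks 1 TPM, and Srsf12 alone lies to its left.

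Among the SR genes, Srsf5, whose product is a shuttling activator of splicing, was highest at 221 TPM in replicate 1 and 285 in replicate 2. Srsf3, which also takes part in RNA export and in the choice of 3′ ends, had 129 and 105 TPM. Srsf2, which acts on exon enhancers in the nucleus, had 59.6 and 117 TPM. Srsf1, the founding member of the family, had 71.7 and 83.6 TPM.

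Srsf1 stood 3.94-fold above Srsf9 (17.9 and 21.5 TPM), its closest paralog, in the means of both libraries. Srsf3 stood 2.21-fold above Srsf7 (48.5 and 57.4 TPM), the SR protein with a zinc knuckle. In coding transcripts alone Srsf3 had 41.6 and 55.7 TPM, below Srsf7 in both libraries. Srsf5 stood 4.48-fold above Srsf6 (57.2 and 55.7 TPM), which itself stood 3.68-fold above Srsf4 (10.8 and 19.9 TPM). Srsf2 and Srsf11 (61.4 and 77.5 TPM) were not ordered, since Srsf11 was above Srsf2 in replicate 1 and below it in replicate 2.

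Srsf10, a regulator that acts as a repressor when dephosphorylated, had 39.8 and 54.6 TPM. Its paralog Srsf12 was the gene below the threshold, with 0.04 and 0.18 TPM from 9 and 64 estimated counts. Tra2b, the main Tra2 gene, stood at 112 and 168 TPM. It was 4.46-fold above Tra2a, which had 23.7 and 39.0 TPM.

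The Hnrnp genes covered a wide range. Hnrnpk, which binds C-rich RNA and DNA through KH domains, was highest on average with 313 TPM in replicate 1 and 497 in replicate 2. Hnrnpa1, a classic repressor of splice sites, had 218 and 550.3 TPM. The order of these leaders changed between the libraries, since Hnrnpk led in replicate 1 and Hnrnpa1 in replicate 2.

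In the A/B group, Hnrnpa1 stood 3.38-fold above Hnrnpa2b1 (84.0 and 143 TPM), which is known for RNA transport and sorting. Hnrnpa2b1 stood 1.80-fold above Hnrnpa3 (35.0 and 91.5 TPM), and Hnrnpa3 stood 3.39-fold above Hnrnpa0 (13.1 and 24.2 TPM). The bounds of both libraries kept these orders apart.

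Among the relatives that bind AU-rich elements, Hnrnpab had 123 and 252 TPM and Hnrnpdl 72.2 and 119.7. Hnrnpd, also known as AUF1, was lower at 18.1 and 26.8 TPM. Hnrnpab stood 8.36-fold and Hnrnpdl 4.28-fold above it.

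The F/H group binds runs of G. Hnrnpf had 192 and 315 TPM and Hnrnph1 had 196 and 226, and the pair was not ordered, with Hnrnph1 just above Hnrnpf in replicate 1 and below it in replicate 2. Hnrnph1 stood 5.85-fold above Hnrnph2 (30.1 and 42.1 TPM) and 13.2-fold above Hnrnph3 (12.6 and 19.5 TPM). In coding transcripts alone Hnrnph1 had 33.09 and 82.85 TPM, closer to Hnrnph2, whose transcripts were all coding.

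Hnrnpl, which binds CA-rich RNA, had 55.0 and 87.3 TPM. Its paralog Hnrnpll, known for splicing of Ptprc (CD45) in lymphocytes, was the lowest detected gene at 7 and 10.7 TPM, and Hnrnpl stood 8.05-fold above it. Hnrnpc, which binds runs of U, had 36.8 and 53.0 TPM. Hnrnpm had 43.9 and 83.7 TPM, above Hnrnpc per length but below it in mean CPM, which does not divide by length. In coding transcripts alone Hnrnpm had 30.1 and 58.6 TPM, below Hnrnpc in replicate 1 and above it in replicate 2.

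Hnrnpr had 44.6 and 43.7 TPM and was nearly equal in the libraries. Hnrnpu, a nuclear scaffold protein, had 65.9 and 48.3 TPM. It stood 2.33-fold above Hnrnpul1 (20.2 and 28.9 TPM), and Hnrnpul1 stood 1.87-fold above Hnrnpul2 (8.83 and 17.4 TPM).

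An order here means the same direction in both libraries with deposited bounds that did not overlap in either. It uses the TPM of a gene over all its transcripts, coding and noncoding. These bounds do not measure the spread between replicates. Between the libraries the bounds of a gene overlapped for only 2 genes, and 4 genes had a TPM outside their own bounds. Of 20 chosen pairs within the families, 18 were ordered. Not all of them are close relatives, such as Hnrnpk with Hnrnpm, Hnrnpc with Hnrnpm, and Srsf2 with Srsf11. Across all pairs of protein-coding genes with a mean of at least 1 TPM, 80.5% were ordered, so most pairs of any 2 expressed genes are ordered too. Of the 528 pairs of the 33 genes, 89.8% were ordered. Between genes next to each other in the list by mean level, 11 of 32 steps were ordered. The order of near neighbours, such as Hnrnpk and Hnrnpa1, or Srsf11, Hnrnpm, Hnrnpa3 and Hnrnpu, is not resolved by 2 libraries.

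The gene level hides what kind of RNA was made. The deposited isoform percent gives the share of the TPM of a gene that falls to each transcript. Transcripts were grouped by their annotation as coding, decay (nonsense-mediated or non-stop), retained intron, or other noncoding. The tables held 219 transcripts of the 33 genes. The median detected gene gave 73.4% ± 5.46 (SD, n = 2) of its TPM to coding transcripts, with 69.5% in replicate 1 and 77.3% in replicate 2. The median of all 9443 detected protein-coding genes was 98.8% ± 1.48. These genes also have more annotated transcripts, 6 at the median against 4. Among genes with 4 or more transcripts the coding median was 57.8% ± 8.45 for the 23 splicing regulators and 82.3% ± 2.60 for all 5136. TPM divides by length, and the noncoding transcripts were short (median 823 nucleotides for retained-intron and 2257 for coding transcripts with a mean of at least 1 TPM). By share of expected counts the coding median of the 32 genes was 93.9% ± 1.31.

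Of the detected genes, 4 had a single transcript in the tables (Srsf7, Tra2a, Hnrnpa0 and Hnrnpul2), so their coding share of 100% is given by the annotation. Decay isoforms of Srsf7 and Tra2a were not analysed here. Hnrnpa1, Hnrnpab, Hnrnpa2b1, Hnrnpf, Hnrnpc, Hnrnph2 and Hnrnpul1 had several transcripts, all of them coding. The leading transcript was the same in both libraries for 24 of 32 genes. For the 4 genes with a single transcript this too is given by the annotation. The share over all protein-coding genes was not computed.

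Decay transcripts were present in the tables for 15 detected genes, with a median share of 8.68% ± 0.616, against 1.61% ± 0.944 over all 2070 genes with such transcripts. By expected counts the median share was 4.15%, against 0.743% over all. With only transcripts of equal length in the tables and GENCODE M21 it was 4.69%. At least 10% of TPM in both libraries was reached by 5 of the 15 (Srsf3, Srsf6, Hnrnpdl, Hnrnpd and Hnrnpll), and by 22.3% of the 2070.

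Srsf3 was the clearest case. Its decay transcript Srsf3-201 had 42.0 TPM in replicate 1 and 39.9 in replicate 2, or 32.5% and 38.0% of the gene. The main coding transcript Srsf3-202 had 41.6 and 55.7 TPM. As estimated, Srsf3-201 was therefore as abundant as the coding transcript in replicate 1 and below it in replicate 2. Retained-intron transcripts given below overlap its poison exon, printed above, so reads from that exon can belong to either kind. By count the decay share was 29.2% and 29.0%. In the tables Srsf3-201 is 1919 nucleotides long and in GENCODE M21 2594, so the structure the authors quantified differs in part from the one printed.

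Srsf6-201 had 14.5 and 12.2 TPM, 25.4% and 21.9% of its gene, and the coding Srsf6-203 held 68.0% and 67.9%. Both libraries gave Srsf6 nearly the same make-up. Tra2b-206, the transcript with the GAA-rich exon, had 9.36 and 21.1 TPM, or 8.34% and 12.6% of its gene. It is 1590 nucleotides long in the tables and 1687 in GENCODE M21, so its quantified structure also differs in part. The coding Tra2b-201 had 24.2 and 67.3 TPM. Both transcripts differed by over 2-fold between the libraries, with bounds that did not overlap, and were higher in replicate 2.

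Hnrnpdl-205 had 10.4 and 37.5 TPM (14.4% and 31.4%) and was the leading transcript of Hnrnpdl in replicate 2. Hnrnpd gave 42.5% and 19.1% to decay transcripts. Hnrnpd-204 led the gene in replicate 1 at 4.18 TPM and was listed at 0 in replicate 2. Hnrnpd-208, the highest decay transcript of Hnrnpd by mean, had 3.22 and 5.10 TPM. Hnrnpll-203 was low at 0.83 and 1.54 TPM but made up 11.8% and 14.4% of its gene. Hnrnph3-204 had 0.76 and 4.76 TPM, 6.05% and 24.4% of its gene. The decay share was thus higher in replicate 1 for Hnrnpd and in replicate 2 for Hnrnph3.

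For the remaining genes with decay transcripts the level was low or seen in 1 library. Srsf2-204 had 8.05 TPM in replicate 1 and was listed at 0 in replicate 2. Srsf1-204 had 5.91 and 0.86 TPM, Srsf5-208 had 4.81 and 2.91, and Hnrnpk-203 had 2.02 and 3.58. Srsf4-204, which shares the stop of the exon printed for Srsf4 but holds it in a first exon of 188 nucleotides, had 0.40 and 1.82 TPM. Srsf4-203, to which the printed exon belongs, had 0.18 and 0 TPM. Srsf11-206 had 0.70 and 1.35, Hnrnpr-206 had 0.78 and 0, and Hnrnpl-213 had 0.66 and 0.02.

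Retained-intron transcripts were present for 18 detected genes, with a median share of 24.8% ± 7.38, against 10.7% ± 2.84 over 4152 genes. By expected counts it was 12.6%, against 5.39% over all. At least 10% in both libraries was held by 11 of the 18 and by 39.9% of the 4152. In total RNA, a finished transcript that keeps an intron and RNA not yet spliced cannot be told apart.

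**Figure D3:**
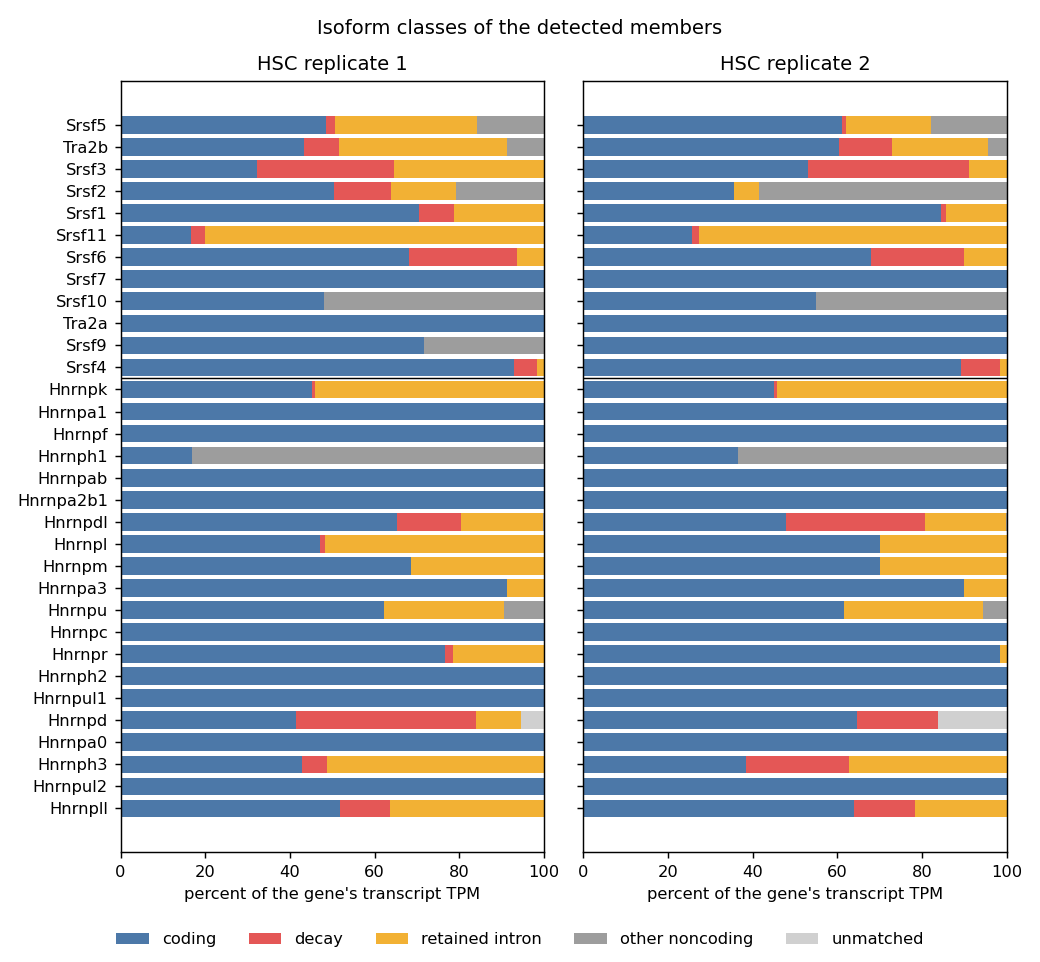
Percent of the transcript TPM of each detected gene (x axis) by isoform class in replicate 1 (left) and replicate 2 (right), Srsf and Tra2 genes above the line. Srsf11 is mostly retained intron in both panels (80.0% and 72.6%), and Srsf3 holds the widest decay segment among Srsf and Tra2 genes.

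Srsf11 gave 80.0% and 72.6% of its TPM to retained-intron transcripts, led by Srsf11-207 at 19.1 and 18.6 TPM, and 16.6% and 25.6% to coding ones. As quantified, Srsf11-207 is 813 nucleotides long, and in GENCODE M21 1670, so its structure differs in part. Hnrnpk gave 54.2% and 54.3%, mostly from Hnrnpk-209 at 130.1 and 241 TPM (41.6% and 48.5%). Hnrnpk-209 is 731 nucleotides long, and 14.6% of its bases lie outside the exons of coding transcripts of the gene. By counts it made up 18.9% and 20.2% of Hnrnpk. The coding Hnrnpk-201 had 82.4 and 140.2 TPM.

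Srsf5-212 had 53.6 and 38.1 TPM and holds 2 whole introns of coding transcripts. The intron that most coding transcripts remove, 5 of them, is 1229 nucleotides long. Tra2b-203 had 40.7 and 33.9 TPM, and 87.1% of its bases lie outside coding-transcript exons. It overlaps the poison exon of Tra2b, so reads from that exon can belong to either transcript. The same holds for Srsf3-204 (14.5 and 9.21 TPM), which contains the whole Srsf3 poison exon inside a retained intron of 2150 nucleotides. Srsf3-205, which in GENCODE M21 also overlaps that exon, had 31.3 TPM in replicate 1 and was listed at 0 in replicate 2. It is 910 nucleotides long as quantified and 2110 in GENCODE M21.

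Hnrnpm-203, of 636 nucleotides as quantified and 2626 in GENCODE M21, had 11.3 and 22.6 TPM. Hnrnpl-206 had 14.2 and 11.8. Hnrnpdl-206 had 9.64 and 15.4 TPM, Srsf1-203 13.5 and 11.8, and Hnrnpu-202 9.46 and 9.97. Hnrnph3-206 had 5.37 and 7.26 TPM and was the leading transcript of Hnrnph3. Of 38 retained-intron transcripts with a mean of at least 1 TPM, 15 hold a whole intron that a coding transcript of the gene removes. The donor sites of 3 such introns are given, those of highest transcript TPM that more than 1 coding transcript removes. Each shows the last 10 exon bases and the first 10 of the intron, of which the first 2 are in capitals.
Srsf5-212, chr12:80947856-80947875, plus strand: cagctggcagGTttgttgaa
Hnrnpk-217, chr13:58393843-58393862, minus strand: tctggatatgGTaagtttct
Hnrnpdl-206, chr5:100036471-100036490, minus strand: gactacagcgGTaagaacac
All 19 transcripts with such an intron, including those below a mean of 1 TPM, keep a GT at its start. The introns were picked as ones that coding transcripts remove, and some transcripts share one, so this describes the annotation only. The Srsf5 intron is 1229 nucleotides long, the Hnrnpk intron 78 and the Hnrnpdl intron 285.

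**Figure D4:**
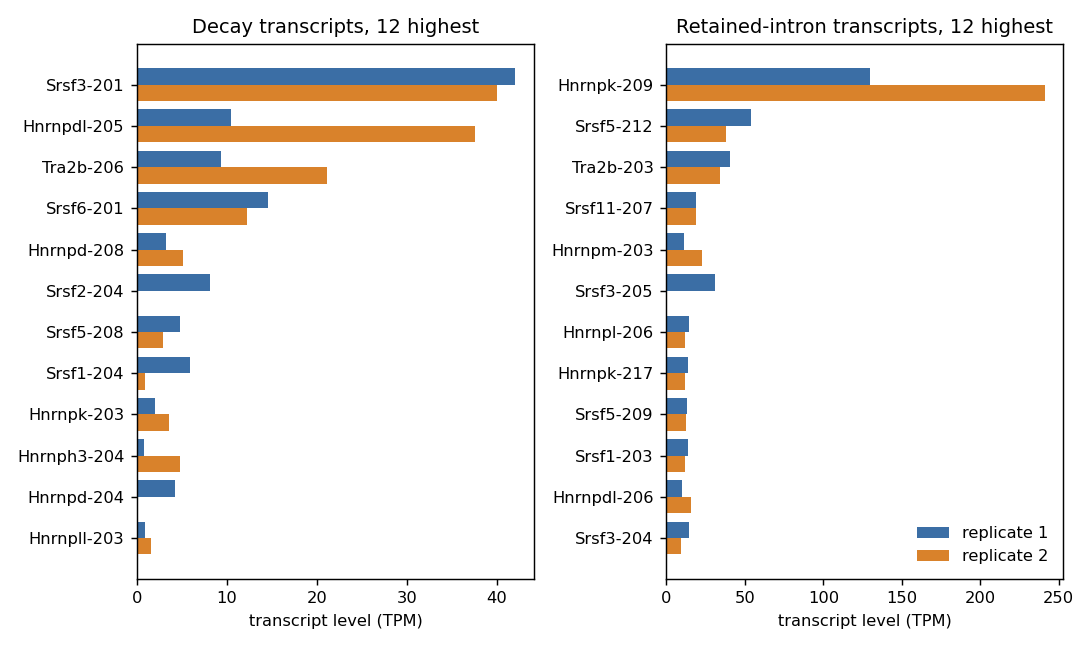
Level in TPM (x axis) of the 12 decay transcripts and the 12 retained-intron transcripts of highest mean TPM, in replicate 1 (blue) and replicate 2 (orange). Srsf3-201 and Hnrnpk-209 lead their classes, and Srsf3-205 is listed at 0 in replicate 2.

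Noncoding transcripts of other kinds mattered most for Hnrnph1. Its coding transcripts held 16.9% and 36.6% of TPM and the rest were processed transcripts, led by Hnrnph1-213 at 40.5 and 49.99 TPM. Srsf2-205, of 433 nucleotides, had 12.4 TPM in replicate 1 and 68.5 in replicate 2, where it led Srsf2. Srsf10-207 led Srsf10 with 13.3 and 14.3 TPM. In 4 of 32 genes the leading transcript was noncoding in both libraries (Hnrnpk, Srsf11, Srsf10 and Hnrnph3), against 5.52% of detected protein-coding genes. By expected counts no gene did so, and in replicate 1 alone 8 did.

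TPM was higher in replicate 2 for 28 of 32 genes, and for 74.0% of all protein-coding genes of mean 1 TPM or more. The 4 exceptions were Srsf3, Srsf6, Hnrnpu and Hnrnpr. The median log2 difference with a pseudocount of 1 was 0.35 for Srsf and Tra2 genes, 0.66 for Hnrnp genes and 0.24 for all. After rescaling to protein-coding TPM, 24 of the 32 were higher in replicate 2, against 48.5% of all. With counts scaled by TMM it was 27 of the 32, against 54.5% of all.

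Only 3 genes were apart between replicates, meaning more than 2-fold with bounds that did not overlap: Hnrnpa1 (2.52-fold), Hnrnpa3 (2.61-fold) and Hnrnpab (2.05-fold), all higher in replicate 2. Among all protein-coding genes 7.01% were apart with replicate 2 higher and 2.26% with replicate 1 higher, so 3 of 32 is near the background at this threshold. At 1.5-fold, 16 of the 32 were apart, all higher in replicate 2, against 24.6% of all protein-coding genes with replicate 2 higher and 5.63% with replicate 1 higher. With counts scaled by TMM or by median of ratios, Hnrnpa1 alone was called at 2-fold, and 2.21% and 2.22% of all genes were apart with replicate 2 higher (3.26% and 3.22% with replicate 1 higher). The pseudogenes Hnrnpa1l2-ps and Hnrnpa1l2-ps2 were at or below 0.22 TPM and Tra2b-ps was listed at 0. Copies under other symbols were not examined, so reads shared with them leave the levels of these genes uncertain.

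**Figure D5:**
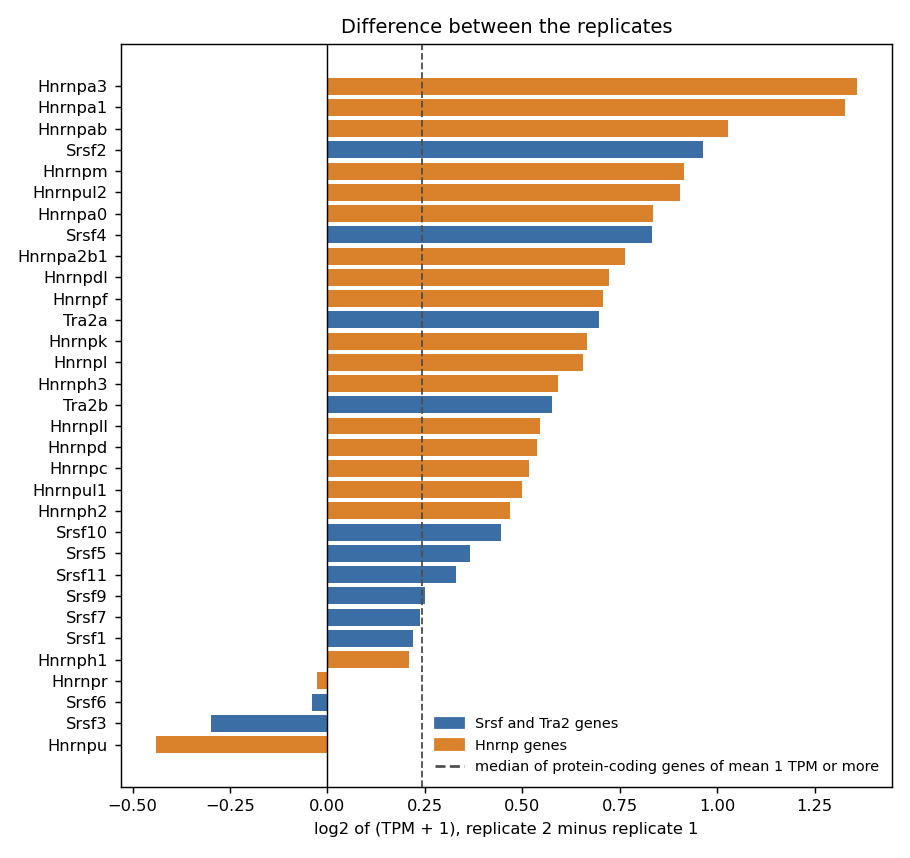
Log2 of (TPM + 1) in replicate 2 minus replicate 1 (x axis) for the 32 detected genes, Srsf and Tra2 genes in blue and Hnrnp genes in orange. The dashed line at 0.24 is the median of protein-coding genes, and 4 genes lie left of 0.

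At the transcript level the same rule was used: more than 2-fold between the libraries with bounds that did not overlap. Of 155 transcripts with a mean of at least 1 TPM, 36 were apart with replicate 2 higher and 20 with replicate 1 higher. Of 16923 transcripts of protein-coding genes the shares were 18.3% and 9.44%. Among 81 coding transcripts 26 were apart with replicate 2 higher and 6 with replicate 1 higher. The shares of all coding transcripts were 15.3% and 6.51%. Among 38 retained-intron transcripts the order was the reverse, with 1 apart with replicate 2 higher and 6 with replicate 1 higher. Over all protein-coding genes 23.0% of retained-intron transcripts were apart with replicate 2 higher and 17.8% with replicate 1 higher. Of the transcripts at 1 TPM or more in replicate 1, 12 were listed at 0 in replicate 2, and 10 of these were noncoding, with a median length of 598 nucleotides for the 12. In the other direction 6 were listed at 0 in replicate 1, and 0 of these were noncoding. Over all protein-coding genes 1289 transcripts were listed at 0 in replicate 2 alone, 730 of them noncoding, and 1307 in replicate 1 alone, 607 of them noncoding. The libraries differ in depth (27901074 and 48490188 estimated counts), in implied mean fragment length (193 and 245 nucleotides) and in labelled size range (172 to 1452 and 232 to 1000). The part of these in the differences was not tested.

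The label was checked against marker genes. Of 8 stem and progenitor markers 7 were detected, with summed TPM of 308 and 330, while Slamf1 stood at 0.42 and 0.43 TPM. The largest parts of that sum were Cd34 (145 and 166) and Flt3 (57.9 and 53.2). All 4 neutrophil markers were detected, with summed TPM of 2869 in replicate 1 and 1056 in replicate 2. The monocyte sum was 360 and 166 over 3 genes, with Csf1r at 1.58 and 0.61. The erythroid sum was 16.5 and 79.3 over 4 genes, mainly Car1. The B cell marker Cd79a was at 0.07 and 0.01 TPM, and of the T cell markers Cd3e was at 0.02 and 0.04 and Cd3g at 1.49 and 1.59. The part of other cell types in the levels above was not tested. In bulk RNA, fewer cells of a type and less RNA per cell cannot be told apart.

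The enzymes that phosphorylate SR proteins or carry them into the nucleus were mostly present, with 10 of 11 detected. Clk1, a nuclear SR kinase, was highest at 160 and 188 TPM, followed by Ppp1ca, a phosphatase subunit, at 51.7 and 74.5, and Clk4 at 45.5 and 57.3. Clk3 was low at 6.68 and 5.20 TPM, and Srpk3 was listed at 0. All 14 factors of nonsense-mediated decay and the exon junction complex were detected. Magoh (35.1 and 59.6 TPM) and Eif4a3 (30.6 and 33.6), both of the exon junction complex, were highest, and by mean TPM the endonuclease Smg6 (9.68 and 18) came next. Smg8 (2.88 and 3.99) and Smg9 (3.46 and 3.20), regulators of the kinase Smg1, were lowest.

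All 15 hnRNP-type proteins with other symbols were detected. Ewsr1 had 106 and 136 TPM, Tardbp 57.9 and 135, and Syncrip 35.0 and 64.98, and the lowest were Pcbp3 (1.67 and 2.41) and Elavl1 (4.53 and 7.96). Of 25 other splicing regulators 17 were detected, led by Rbm39 (180.3 and 202), Mbnl1 (112 and 153) and Acin1 (42.0 and 73.0). The epithelial regulators Esrp1 and Esrp2 and the neuronal Rbfox1, Rbfox3 and Srrm4 were listed at 0. The median levels of the lists were 16.2, 9.23, 16.5 and 17.7 TPM in the order given, below the 57.3 of the Srsf and Tra2 genes and the 56.3 of the Hnrnp genes.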

How the data were processed

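Per the file headers, the authors deposited expected counts, TPM, FPKM and posterior means for each gene and transcript. They also deposited bounds and posterior SDs, used here as a score, and the isoform percent. The submitters' text files name mm10 and GENCODE M4, while aligner and counting tool stay not given in the sources used here. Names, transcript classes and structures came from GENCODE M21 on GRCm38, matched by identifier without version: 218 of 219 transcripts matched, and 21 had another length there. Medians, ratios, calls and counts of GAA were computed with Python 3.11.15 and pandas 2.3.3; TMM factors came from edgeR 4.0.16. The call rules were tested on simulated data. The rule on symbols uses no value, but the members and lists were chosen with earlier results of these data known. Named isoforms were the leading transcript and the highest decay and retained-intron transcripts of the members, with others described; from other lists, the 3 highest and 2 lowest. Protein sequences were not used here. Total counts were 27901074 and 48490188, and the posterior SD of a detected gene's count was at most 0.641% of it. This SD was 0 for Srsf9 with 1097 counts in replicate 1, so it leaves out counting error and the spread between libraries. In place of a test, the smallest p an exact sign-flip permutation could give is 0.5. From the marker lists, 1 gene is not reported here.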

Additional observations from a re-analysis of the deposited data

How the results depend on the processing

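For 11 results, the summary counts and medians named here, 69 values were computed under alternative settings. Of these, 53 stayed within the replicate SD or, for counts, within 1.5 times the reported count. For medians and their log2 difference, leaving out 1 of 2 libraries always stays within that SD, so those values could not have moved. The 53 also include values of the log2 difference whose sign changed from that of its mean, -0.076. Other counts and the GAA densities were not recomputed. The number of detected genes was 32 under all 8 settings. The number of ordered pairs ranged from 18 to 20 over all its settings. Rescaling TPM over protein-coding genes moved the medians to 317 (Srsf and Tra2) and 304 (Hnrnp). The Srsf and Tra2 median was 56.6 with posterior means and 62.9 without Srsf12. The log2 difference of the medians was 0.11 in CPM. Leaving out replicate 1 or replicate 2 gave 0.21 and -0.36 for that difference, medians of 57.4 and 57.2 (Srsf and Tra2) and 68.4 and 44.3 (Hnrnp), coding shares of 77.3% and 69.5%, decay 9.12% and 8.25%, retained intron 19.6% and 30.03%, other noncoding 11.8% and 18.3%, and 6 and 8 genes led by a noncoding transcript. Genes apart between replicates numbered 16 at 1.5-fold and 1 with either count scaling. By expected counts the shares were 93.9% coding, 4.15% decay, 12.6% retained intron and 4.14% other noncoding, and 0 genes were led by a noncoding transcript. The coding share was 57.8% with at least 4 transcripts, and the decay share was 6.29% at 10 TPM or more and 4.69% for transcripts of equal length in GENCODE M21; these restrictions by transcript number and length were chosen after seeing the data. No paired analysis was possible because there is 1 group.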
